A study of Mus musculus with 6 samples.

Results

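The 8 genes described here, *Trp53cor1*, *Phlda3*, *Psrc1*, *Inka2*, *Btg2*, *Plk2*, *Plk3* and *Gtse1*, are known from other systems as transcripts that p53 induces and that slow growth or division. They were taken by gene name from the 55421 genes of the deposited table. The 8 were chosen by their levels in the same hnRNPL-deficient and WT libraries, so that comparison is given for them as a description, without a test. After 24 h of culture of splenic B cells in 5 ng/ml IL-4 plus 5 μg/ml LPS, those positive for GFP were sorted, and polyadenylated RNA of 3 mice per genotype was sequenced as 1 library per mouse. WT mice were CD21-cre, and hnRNPL-deficient mice were CD21-cre with both *Hnrnpl* alleles floxed (hnRNPL F/F). Both carried the Rosa mT/mG reporter, in which Cre switches a cell from tdTomato to GFP, on a C57BL6/J background. The study used mice of either sex from an age of 6 weeks. CD21-cre acts mostly in mature B cells but can also excise in other tissues, so the sort restricts the libraries to cells in which Cre had acted, in the controls too.

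p53 is a transcription factor that is kept low by the ubiquitin ligase Mdm2 and is stabilised by damage and other stress, after which it binds DNA as a tetramer. Its targets include inhibitors of the cell cycle, such as *Cdkn1a* (p21), as well as genes of cell death, DNA repair and metabolism. In B cells, which divide rapidly after activation, p53 limits the expansion of cells with damaged DNA. The 8 genes act at different points: *Trp53cor1* (lincRNA-p21) is a long noncoding RNA, *Phlda3* and *Inka2* encode inhibitors of the kinases Akt and Pak4, *Btg2* recruits the Ccr4-Not deadenylase to mRNA, *Plk2* and *Plk3* encode polo-like kinases, and *Psrc1* and *Gtse1* encode proteins that bind microtubules. *Gtse1* is also known to hold p53 activity down, which is not what the name of the group says. p53 protein and its binding to DNA were not measured in these libraries.

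The promoters of the genes are shown because a p53-bound motif is the textbook link between them. RefSeq windows on GRCm38.p6, 300 bases long (250 before and 50 after a start), were found for 7 of the 8 genes and gave 10 windows, since *Psrc1*, *Inka2* and *Gtse1* each have a pair of starts. The 10 windows held 12 to 32 CpG dinucleotides, all above the median of 7 over 32851 mouse windows, and 56.3% to 72.0% G and C against a median of 52.7%. The p53 decamer motif was found in 2 of the 10 windows, at the second starts of *Inka2* and *Gtse1*, and in 8.36% of all windows. A full p53 motif, made of a pair of decamers, was found in 0 of the 10 windows and in 0.0731% of all windows. Counting mismatches to a full motif without a spacer, a search added after the data were seen, gave 1 mismatch in 20 bases at the second start of *Gtse1*, a match that 0.0883% of all windows reached. The first start of *Cdkn1a* also had 1 mismatch. Unlike the 10 windows, it held in addition a full motif with a spacer between its decamers, beginning 73 bases before the start. The best stretch of the other windows of the 8 genes had 4 to 6 mismatches. It had 4 at the start of *Btg2* and at the second start of *Inka2*, and 30.2% of all windows had 4 or fewer. The stretches lie on the plus strand at chr15:85859945-85859964 (*Gtse1*), chr17:29090928-29090947 (*Cdkn1a*) and chr3:105705323-105705342 (*Inka2*, 4 mismatches), with mismatches in capitals:
Gtse1: gagcaagttGgggcttgcct
Cdkn1a: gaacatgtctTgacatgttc
Inka2: gggcttgGcAgagctGgcGc

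The stretch of *Gtse1* begins 1 base before its second start and that of *Cdkn1a* begins 51 bases before its first start. Both *Gtse1* windows and the second *Inka2* window are printed whole, on the plus strand, because they hold the matches described. In the second window of *Gtse1* (chr15:85859696-85859995) the capitals mark the stretch with 1 mismatch. In its first window (chr15:85859457-85859756) they mark CCAAT boxes on either strand, and in the second window of *Inka2* (chr3:105705208-105705507) the p53 decamer:
Gtse1 second start: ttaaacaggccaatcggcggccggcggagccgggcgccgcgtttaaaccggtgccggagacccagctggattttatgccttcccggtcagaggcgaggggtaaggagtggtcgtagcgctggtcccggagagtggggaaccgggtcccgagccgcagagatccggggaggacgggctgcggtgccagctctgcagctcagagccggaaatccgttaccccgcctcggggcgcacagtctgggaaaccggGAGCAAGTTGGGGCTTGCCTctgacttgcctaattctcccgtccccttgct
Gtse1 first start: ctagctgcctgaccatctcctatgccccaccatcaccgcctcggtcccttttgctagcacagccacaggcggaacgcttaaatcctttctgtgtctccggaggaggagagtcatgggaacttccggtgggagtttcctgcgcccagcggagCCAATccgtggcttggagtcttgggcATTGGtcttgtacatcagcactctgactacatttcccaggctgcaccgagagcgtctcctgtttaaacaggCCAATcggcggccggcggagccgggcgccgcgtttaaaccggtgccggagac
Inka2 second start: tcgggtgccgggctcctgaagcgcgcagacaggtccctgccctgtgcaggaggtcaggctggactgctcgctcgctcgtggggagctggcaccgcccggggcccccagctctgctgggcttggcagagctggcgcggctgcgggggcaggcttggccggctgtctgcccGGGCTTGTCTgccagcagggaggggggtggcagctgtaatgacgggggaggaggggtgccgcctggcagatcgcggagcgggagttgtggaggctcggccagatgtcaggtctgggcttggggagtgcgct

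The CCAAT box (CCAAT, both strands) is common in promoters of genes used in cell division. It was found in 6 of the 10 windows, from 4 of the 7 genes (*Psrc1*, *Inka2*, *Btg2* and *Gtse1*), and in 37.4% of all windows. The windows of *Psrc1* overlap each other, as do those of *Gtse1*, so 1 box of each of these genes was counted in both of its windows. The first start of *Gtse1* held 3. The CHR element of such promoters (TTTGAA, both strands) was found in 0 of the 10 windows and 17.9% of all windows, and the CArG box bound by serum response factor in 0 and 1.63%. For the CHR element only the exact letters were searched, so sequence variants of it would be missed. These are matches of letters in a short window, and binding was not measured.

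The libraries held 40395186 to 75180749 reads on genes, fewest in hnRNPL-deficient library 3, and the log2 values of replicates of a group correlated across genes at 0.979 to 0.992. *Hnrnpl*, the deleted gene, stood at 6.74% of its WT level after deletion. A total of 17640 genes had a mean over the 6 libraries of 10 or more normalized counts and were tested. Of these, limma called 1284 higher (7.28%) and 719 lower (4.08%) in hnRNPL-deficient cells, at an adjusted p under 0.1 and at least 1.5-fold. Here a normalized count is the number of reads on a gene divided by the size factor of its library. *Xist* marked WT library 3 and hnRNPL-deficient library 2 as female and the other 4 as male. Summed B cell markers were at 340609 to 448855 normalized counts in every library. Of the 9, 1 was called higher, *Cr2* (log2 difference 0.85, limma adjusted p = 0.0444), while *Cd22* was at -0.55 (adjusted p = 0.00987), under the fold threshold. Of 5 plasma cell markers 1, *Jchain*, was called lower, from 84.1 ± 50.4 to 14.7 ± 8.23, and summed plasma cell markers were at 33296 to 39571. Of 9 myeloid markers only 2 were tested. Of these 1, *Adgre1*, was called higher, at 278 ± 39.9 normalized counts in WT libraries against 1308 ± 80.1 (SD, n = 3). It set the summed myeloid level of 260 to 331 in WT and 1239 to 1384 in hnRNPL-deficient libraries, while *S100a8*, *S100a9* and *Itgax* were at 0 in all 6 libraries and *Lyz2* and *Cd14* in 5. Of 9 erythroid and platelet markers only 3 were tested, and 1, *Hbb-bt*, was called higher. The sums of the 9 were 52.2 to 56.6 in WT and 72.1 to 114 in hnRNPL-deficient libraries, with *Pf4* and *Ppbp* at 0. Of 6 stromal markers only 2 were tested, and 1, *Cdh5*, was called higher. The sums of the 6 were 2644 to 2771 in WT and 3761 to 4481 in hnRNPL-deficient libraries, mostly *Pecam1*, with *Col3a1* at 0. Of 8 T cell markers only 2 were tested, and they went in opposite directions. *Cd8b1* was called lower, from 28.9 ± 3.34 to 8.38 ± 5.88. *Trac* was not called, at 16.6 ± 2.30 in WT and 26.6 ± 5.75 in hnRNPL-deficient libraries (log2 difference 0.64, limma adjusted p = 0.256). The sums of the 8 were 57.9 to 60.3 in WT and 47.5 to 49.3 in hnRNPL-deficient libraries, with *Cd4* at 0 in 5 of the 6 libraries. Summed NK cell markers were at 0 to 9.92 in every library. The part of these markers in the values below was not tested.

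All 8 genes passed the filter on low values. *Trp53cor1* passed it only through the hnRNPL-deficient libraries, and the other 7 also had a WT mean of at least 10. By limma 7 of the 8 were called higher, 0 lower and 1, *Plk3*, was not called. In the same 7, every hnRNPL-deficient library lay above every WT library, a pattern seen in 17.7% of all tested genes. Because the genes were proposed from this comparison, nothing is read from these counts. The fitted log2 difference, hnRNPL-deficient minus WT, of log2(normalized count + 1) had a median of 3.67 over the 8 genes and -0.03 over all tested genes. The 8 genes covered a wide range, since 5 had a ratio of means of at least 10, as had 44 of the tested genes called higher, and 3 lay at or below 2.46. In these bulk libraries more cells with a transcript and more of it per cell cannot be told apart.

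**Figure D1:**
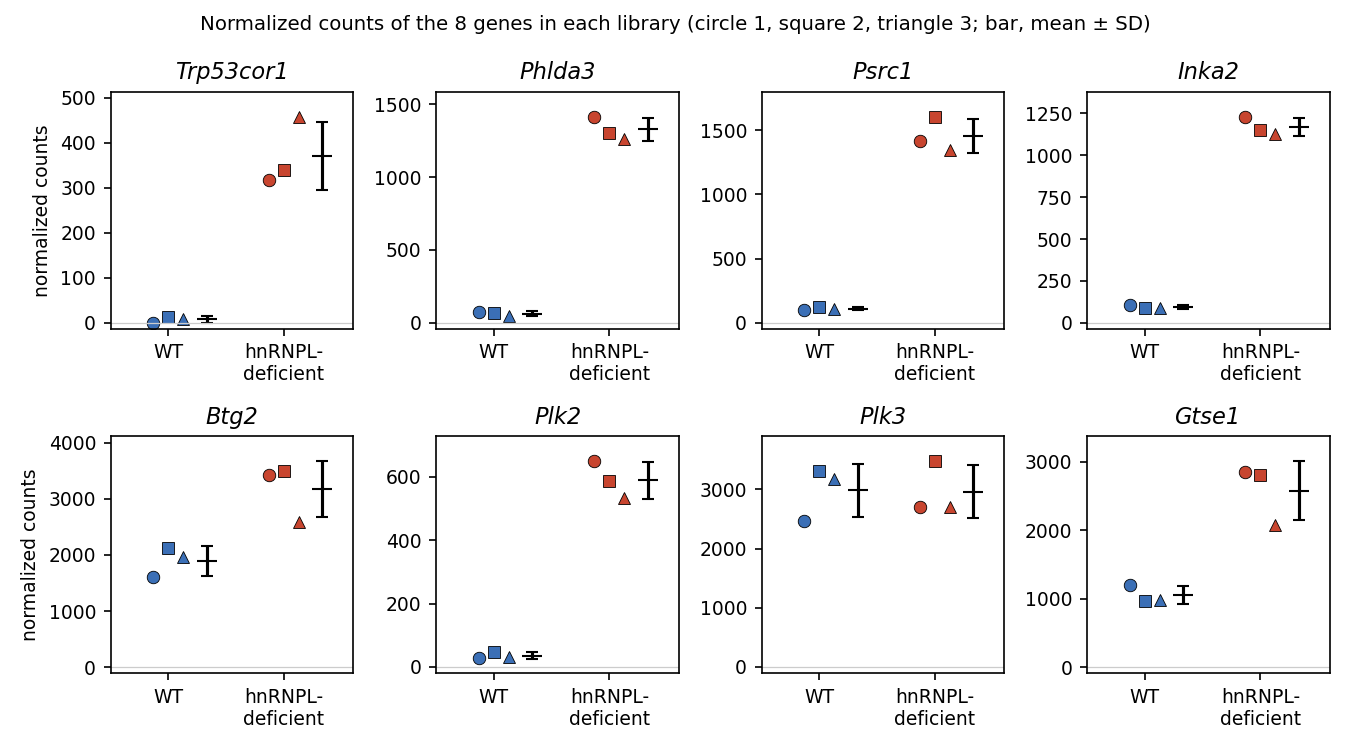
Normalized counts (y axis, from 0, a separate scale for each gene) of the 8 genes in each of the 3 WT (blue) and 3 hnRNPL-deficient (red) libraries, with the mean ± SD as a black bar beside each group. The groups are separate for 7 genes and overlap for *Plk3*.

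*Trp53cor1* (ENSMUSG00000085912.2, chromosome 17, 29057430 to 29079179, minus strand) is the one noncoding transcript of the group. It was at 0, 13.8 and 8.41 normalized counts in WT libraries 1 to 3 and at 316, 339 and 458 in hnRNPL-deficient libraries 1 to 3. The WT values rest on 0, 16 and 11 reads, so this gene was close to the limit of detection in WT and plainly present in all 3 hnRNPL-deficient libraries. The means were 7.42 ± 6.97 and 371 ± 75.9 (SD, n = 3), a ratio of 50.1 and a log2 difference of 6.15 (SE 0.868). That difference was the largest and the least precise of the 8, and it fell to 4.96 without WT library 1, where the gene was at 0.

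*Phlda3* encodes a small pleckstrin-homology protein that competes with Akt for membrane phosphoinositides. The gene (ENSMUSG00000041801.5) lies on chromosome 1, 135766119 to 135769136, plus strand. It was at 75.4, 68.3 and 43.6 normalized counts in WT and at 1414, 1303 and 1261 in hnRNPL-deficient libraries. The lowest hnRNPL-deficient library was 16.7 times the highest WT library, and the hnRNPL-deficient values varied less in proportion (coefficient of variation 5.94%) than the WT values (26.8%). The ratio of means was 21.2 and the log2 difference 4.42 (SE 0.221).

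*Inka2* encodes an inhibitor of the kinase Pak4, which acts on the cytoskeleton. The gene (ENSMUSG00000048458.8) lies on chromosome 3, 105704599 to 105720842, plus strand. It was at 107, 87.3 and 88.7 normalized counts in WT and at 1231, 1151 and 1129 in hnRNPL-deficient libraries. The 3 libraries of each genotype lay close together, and those of the hnRNPL-deficient cells had the smallest coefficient of variation among the 8 genes, 4.55%. The ratio of means was 12.4 and the log2 difference 3.63 (SE 0.155).

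*Btg2*, an antiproliferative gene of the BTG/TOB family, was already abundant in WT B cells. The gene (ENSMUSG00000020423.6) lies on chromosome 1, 134075170 to 134079120, minus strand. It was at 1604, 2123 and 1961 normalized counts in WT and at 3428, 3490 and 2592 in hnRNPL-deficient libraries. All 3 hnRNPL-deficient libraries were higher, but the gap was narrow: the lowest of them was 1.22 times the highest WT library. The ratio of means was 1.67 and the log2 difference 0.74 (SE 0.154), the smallest of the 7 genes called higher.

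*Plk2* and *Plk3* encode stress-responsive relatives of the mitotic kinase Plk1. *Plk2* (ENSMUSG00000021701.8, chromosome 13, 110395046 to 110400844, plus strand) was at 27.9, 47.6 and 32.1 normalized counts in WT and at 650.0, 586 and 533 in hnRNPL-deficient libraries. All 3 hnRNPL-deficient libraries were at least 11.2 times the highest WT library, with a log2 difference of 4.03 (SE 0.242). *Plk3* (ENSMUSG00000028680.14, chromosome 4, 117128655 to 117133963, minus strand) was at 2472, 3310 and 3179 normalized counts in WT and at 2698, 3481 and 2707 in hnRNPL-deficient libraries. The *Plk3* groups overlapped, with WT library 1 below and hnRNPL-deficient library 2 above all others. The means were 2987 ± 451 and 2962 ± 450 (SD, n = 3), and the log2 difference was -0.01 (SE 0.150). Its sign changed with the setting, between -0.15 and 0.07. Per kb of exon, *Plk2* stood at 0.635%, 0.810% and 0.569% of *Plk3* in the WT libraries and at 13.6%, 9.48% and 11.1% in the hnRNPL-deficient libraries. *Plk3* thus remained the more abundant transcript in every library.

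*Psrc1* (also called DDA3) encodes a protein that binds microtubules and takes part in spindle dynamics. The gene (ENSMUSG00000068744.12) lies on chromosome 3, 108383839 to 108388231, plus strand. It was at 99.8, 126 and 105 normalized counts in WT and at 1416, 1605 and 1343 in hnRNPL-deficient libraries. The groups were far apart relative to the spread within them, with coefficients of variation of 12.7% in WT and 9.30% in hnRNPL-deficient libraries, a ratio of means of 13.2 and a log2 difference of 3.71 (SE 0.158).

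*Gtse1*, expressed in the S and G2 phases of dividing cells, stabilises spindle microtubules and binds p53. The gene (ENSMUSG00000022385.11) lies on chromosome 15, 85859745 to 85876573, plus strand, and its model starts within the first promoter window printed above. It was at 1200, 972 and 975 normalized counts in WT and at 2852, 2798 and 2079 in hnRNPL-deficient libraries. The lowest hnRNPL-deficient library was 1.73 times the highest WT library, the ratio of means was 2.46 and the log2 difference 1.29 (SE 0.154).

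Among the hnRNPL-deficient libraries, library 3 had the lowest value for 6 of the 8 genes and library 1 for the other 2, *Trp53cor1* and *Plk3*. Library 3 was also the shallowest and had the lowest summed level of mitotic genes, and the part of these in the values was not tested. Within the 4 male libraries, the groups were separate for the 7 genes whose groups were separate over all libraries. That separation follows from the one over all libraries and is no second check. The male and female ratios of means were 56.0 and 40.3 for *Trp53cor1*, 18.6 and 29.9 for *Phlda3*, and 1.62 and 1.78 for *Btg2*. They were 0.935 and 1.10 for *Plk3*. The female ratio compares 1 library with 1, so it has no replicate check.

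Levels of different genes were compared per kb of exon (union of the annotated exons). In WT the order from high to low was *Plk3* (1180 normalized counts per kb), *Btg2* (691), *Gtse1* (383), *Phlda3* (40.1), *Psrc1* (32.8), *Inka2* (19.7), *Plk2* (7.98) and *Trp53cor1* (1.99). Only the neighbours *Phlda3* and *Psrc1* overlapped in their ranges over the WT libraries. The order of means was the same in hnRNPL-deficient cells, at 1170 for *Plk3*, 1156 for *Btg2*, 939.6 for *Gtse1*, 851 for *Phlda3*, 433 for *Psrc1*, 245 for *Inka2*, 131 for *Plk2* and 99.5 for *Trp53cor1*. There the first 4 genes followed each other with overlapping ranges, as did *Plk2* and *Trp53cor1*. With the length of the longest transcript instead, *Psrc1* came before *Phlda3* in WT, and the ranges of *Plk2* and *Trp53cor1* no longer overlapped.

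**Figure D2:**
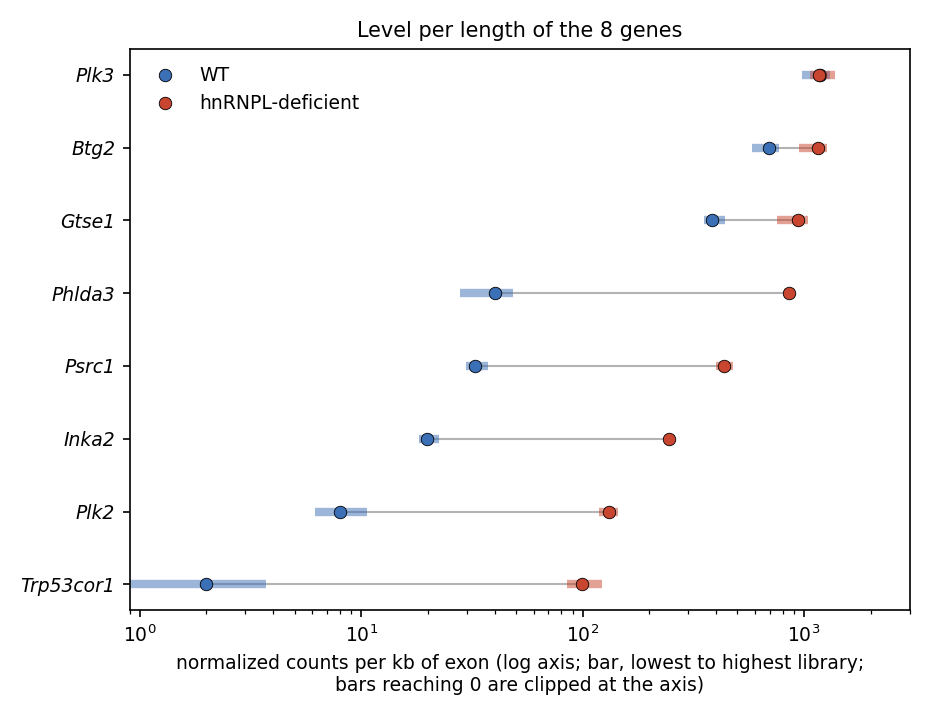
Level of each gene in normalized counts per kb of exon (x axis, log scale), with the mean of 3 WT libraries in blue and of 3 hnRNPL-deficient libraries in red, joined by a grey line, and coloured bars from the lowest to the highest library. The genes keep one order in both genotypes, and the 4 highest lie close together in hnRNPL-deficient cells, between 851 and 1170.

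The mRNA of p53 itself was not called changed. *Trp53* had 12283 ± 878 normalized counts in the WT libraries against 10351 ± 1567 without hnRNPL (SD, n = 3), a log2 difference of -0.26 (SE 0.128, limma adjusted p = 0.237). Of 11 tested genes in the list of p53 regulators, which includes *Trp53* itself, 1 was called higher and 2 lower. *Mdm2*, both the ubiquitin ligase of p53 and its target, rose from 4205 ± 288 to 6654 ± 101 (log2 difference 0.66, SE 0.0918, limma adjusted p = 0.00374). Among the checkpoint kinases that act upstream of p53 on damaged DNA, *Atr* (log2 difference -0.15, limma adjusted p = 0.420) and *Chek2* (-0.15, limma adjusted p = 0.512) were not called, and *Atm* (log2 difference -0.64, SE 0.109, limma adjusted p = 0.00880) and *Chek1* (-0.66, SE 0.171, limma adjusted p = 0.0419) fell. The median of the 11 genes, *Trp53* included, was -0.15 on that log2 scale.

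Of 36 other p53 targets tested, 18 were called higher, 1 lower and 17 were not called, beside 7.28% higher and 4.08% lower over all genes, and their median log2 difference was 0.62. This list was drawn up with earlier results of these data known. *Cdkn1a*, the p21 inhibitor of cyclin-dependent kinases, was at 440, 553 and 421 normalized counts in WT and at 4739, 5193 and 4376 in hnRNPL-deficient libraries, a ratio of 10.1 (log2 difference 3.34, SE 0.136, limma adjusted p = 2.11e-05). *Trp53inp1*, which links p53 to autophagy and cell death, rose from 1302 ± 137 to 8803 ± 1752, and *Dglucy*, a mitochondrial enzyme, from 445 ± 52.4 to 2135 ± 234 (SD, n = 3). The RNA-binding protein gene *Zmat3* rose from 1399 ± 166 to 5939 ± 660, the cyclin gene *Ccng1* from 10868 ± 2636 to 33773 ± 6964, and the thiamine transporter gene *Slc19a2* from 525 ± 44.8 to 1604 ± 23.0. The one target called lower was *Cd82*, a tetraspanin of the cell surface, from 7558 ± 870.1 to 4399 ± 475. The 5 genes of the 8 with a ratio of at least 10 had log2 differences above that of *Cdkn1a*, the highest of this list. They were picked by their levels in these same libraries, so nothing is read from that order.

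**Figure D3:**
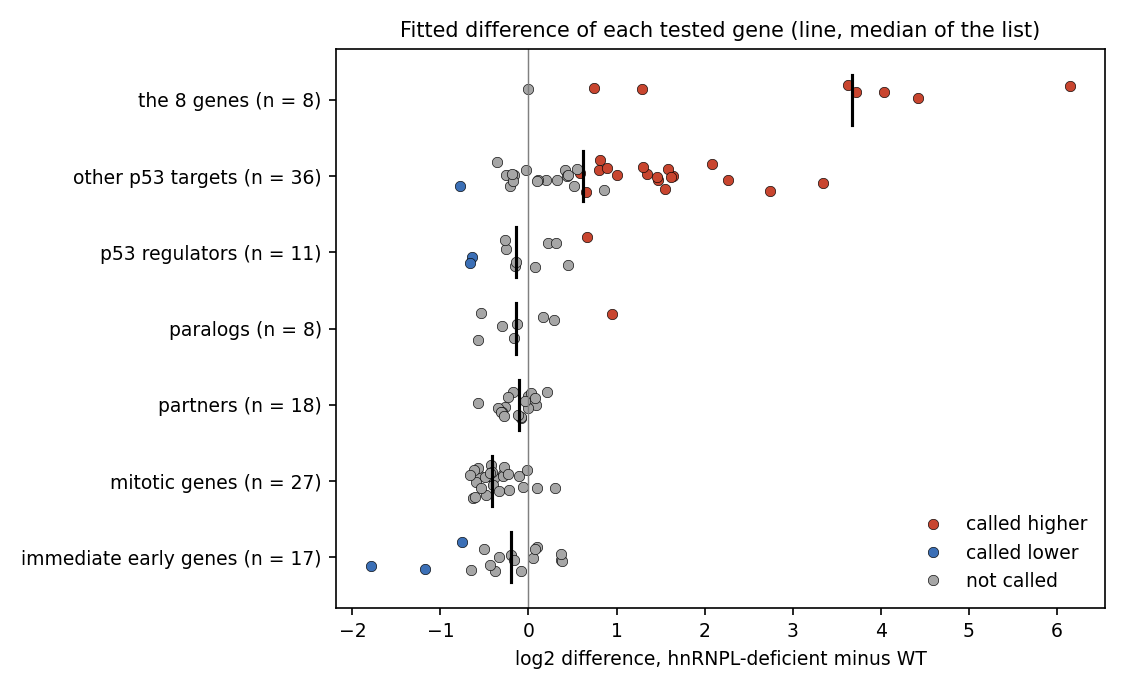
Fitted log2 difference (x axis, hnRNPL-deficient minus WT) of every tested gene in 7 lists, in red where called higher, blue where called lower and grey where not called, with the median of each list as a black line. The 8 genes span -0.01 to 6.15, the other p53 targets -0.78 to 3.34, and the mitotic genes have a median of -0.41.

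The relatives of the 8 genes were mostly not called. Of 8 tested paralogs, 1 was called higher, *Tob1*, an antiproliferative relative of *Btg2*, from 436 ± 44.3 to 842 ± 132 normalized counts (log2 difference 0.94, SE 0.156, limma adjusted p = 0.00779). The mitotic kinase *Plk1* went from 666 ± 261 to 461 ± 197 and *Plk4*, which duplicates centrioles, from 3270 ± 742 to 2256 ± 521, and neither was called (limma adjusted p = 0.364 and 0.123). Of 18 partners of the products of the 8 genes, such as Akt kinases and Ccr4-Not subunits, limma, edgeR and DESeq2 called 0 higher. Of the same 18, limma and DESeq2 called 0 lower against 1 by edgeR. At an unadjusted p under 0.05, 4 partners were lower and 0 higher by limma. The medians were -0.14 for the paralogs and -0.10 for the partners.

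*Psrc1* and *Gtse1* are used by dividing cells, so they were set beside 27 other mitotic genes. By limma, edgeR and DESeq2 with group as the only term, 0 of the 27 were called in either direction. With the replicate number as a block, limma called 5 lower and 0 higher. At an unadjusted p under 0.05, 4 were lower by limma and 0 higher. In all, 25 of the 27 had a negative log2 difference and 2 a positive one, with a median of -0.41. The mean log2 level of the 27 genes was 10.96, 10.28 and 10.30 in WT libraries 1 to 3 and 10.49, 10.28 and 9.68 in hnRNPL-deficient libraries 1 to 3, so the groups overlapped. *Gtse1* lay below that mean in WT, with log2 distances of -0.73, -0.35 and -0.37, and above it in hnRNPL-deficient libraries, with distances of 0.99, 1.18 and 1.34. *Psrc1* was at distances of -4.30, -3.29 and -3.57 in WT and of -0.02, 0.37 and 0.71 in hnRNPL-deficient libraries. Both genes were chosen by their levels in these libraries, so these distances are a description. Per kb of exon, *Gtse1* was 0.995, 1.51 and 1.52 times *Plk1* in WT and 3.75, 4.19 and 7.03 times in hnRNPL-deficient libraries.

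**Figure D4:**
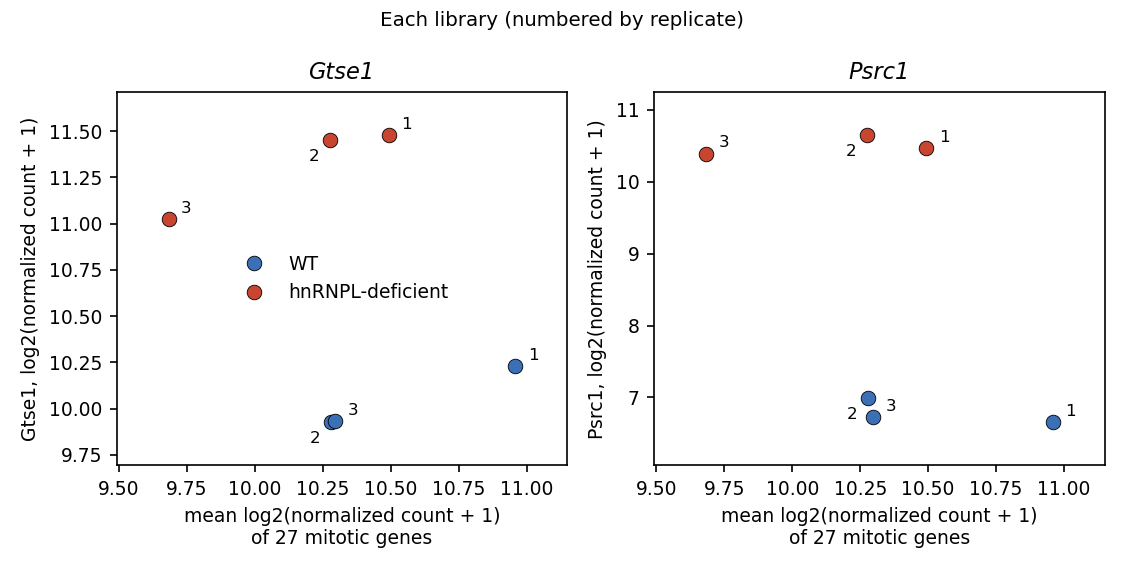
Level of *Gtse1* (left) and *Psrc1* (right) in each library, as log2(normalized count + 1) on the y axis, against the mean log2(normalized count + 1) of 27 mitotic genes on the x axis, for WT (blue) and hnRNPL-deficient (red) libraries numbered by replicate. The groups overlap along the x axis, between 9.68 and 10.96, and are separate along the y axis.

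*Btg2*, *Plk2* and *Plk3* are also induced by growth stimuli, like immediate early genes. Of 17 tested immediate early genes, limma called 0 higher and 3 lower, and the median was -0.19. *Fosb*, a subunit of AP-1, fell from 152 ± 72.4 to 42.8 ± 19.1 normalized counts, *Egr3* from 2763 ± 301 to 1221 ± 58.6, and *Atf3*, itself also known as a p53 target, from 706 ± 59.4 to 423 ± 83.9 (limma adjusted p = 0.0430, 0.000828 and 0.0309). edgeR and DESeq2 also called 0 higher, and 2 were higher at an unadjusted p under 0.05 by limma.

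The genomic neighbours of the 8 genes were examined because *Trp53cor1* lies beside *Cdkn1a*. Of 57 other tested genes that start within 200 kb of one of the 8, 7 (12.3%) were called higher and 1 (1.75%) lower, beside 7.28% and 4.08% of all tested genes, and their median log2 difference was 0.10. Within 500 kb, 10 of 123 (8.13%) were called higher and 3 (2.44%) lower, with a median of -0.01. Around *Trp53cor1*, 3 of 12 were called higher. *Cdkn1a* starts at -11.8 kb, upstream, on the opposite strand. The predicted transcript *1700023B13Rik*, whose start lies at -15.3 kb, inside *Cdkn1a* on the opposite strand, was at 0, 1.73 and 0.765 normalized counts in WT and at 24.3, 13.1 and 28.8 in hnRNPL-deficient libraries (limma adjusted p = 0.00521). *Cpne5*, a calcium-dependent membrane-binding protein gene at -159 kb, was at 8.12, 6.05 and 9.18 and at 31.6, 33.3 and 32.9 (limma adjusted p = 0.00958). *1700023B13Rik* and *Cpne5*, with WT means of 0.831 and 7.78, passed the filter on low values only through the hnRNPL-deficient libraries. Per kb of exon, *Trp53cor1* was at 0%, 2.38% and 1.90% of *Cdkn1a* in WT and at 6.36%, 6.22% and 9.96% in hnRNPL-deficient libraries. The WT shares rest on 0, 16 and 11 reads of *Trp53cor1*, and since it was chosen by its level in these libraries, nothing is read from the difference in share.

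Near the other genes, 1 neighbour each was called higher for *Gtse1* (*Ttc38*, log2 difference 0.65), *Plk2* (*Gapt*, 0.68), *Plk3* (*Tctex1d4*, 1.25) and *Psrc1* (*Sort1*, 1.25), with limma adjusted p between 0.0224 and 0.0638. *Tctex1d4*, with a WT mean of 9.16, passed the filter on low values only through the hnRNPL-deficient libraries. The neighbour of *Phlda3* called lower was *Tnnt2*, a cardiac troponin gene that was low here, from 33.2 ± 10.0 to 12.3 ± 6.29 normalized counts (limma adjusted p = 0.0784). The 8 neighbours of *Inka2* and the 2 of *Btg2* were not called.

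**Figure D5:**
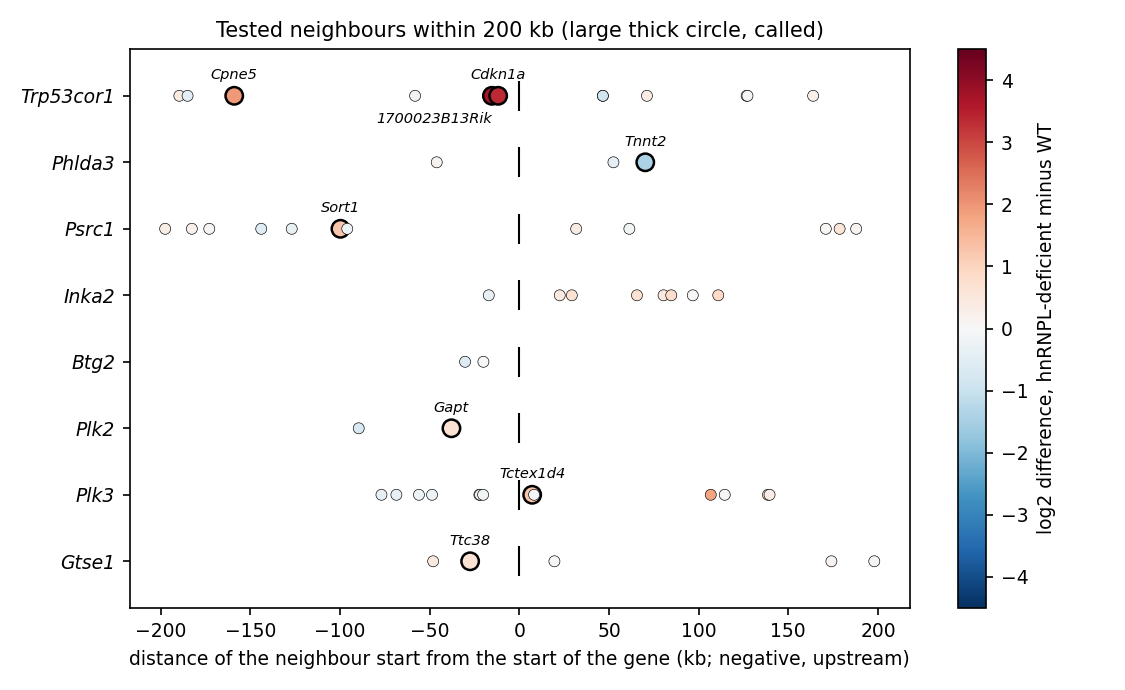
Tested genes whose start lies within 200 kb of the start of each of the 8 genes (rows), placed by distance along the x axis (kb, negative is upstream) and coloured by log2 difference, hnRNPL-deficient minus WT, with large outlined circles for called genes. The 3 called genes near *Trp53cor1* are all upstream of it, and *Btg2* and *Inka2* have no called neighbour.

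The genes whose profile over the 6 libraries was most like each of the 8 were found by the root mean square distance of log2 values centred on their own mean, over genes with a mean of at least 50. For *Psrc1* the nearest were *Cdkn1a* (distance 0.190) and *Serpine2* (0.202), an inhibitor of serine proteases, and for *Inka2* the costimulatory ligand gene *Cd80* (0.193) and *Cdkn1a* (0.242). *Plk2* was nearest to *Serpine2* (0.170) and *Gm14167* (0.226), and *Phlda3* to the same 2 genes (0.381 and 0.364). *Serpine2* had 36.6 ± 4.07 in the WT libraries against 587 ± 117 without hnRNPL, *Cd80* at 115 ± 18.9 and 1382 ± 273, and *Gm14167* at 13.4 ± 4.52 and 191 ± 7.80 normalized counts (SD, n = 3). *Trp53cor1* had no close match, with *Ndnf* at 0.886 and *Tnfsf8* at 1.05. *Gtse1* was nearest to *Gdpd1* (0.0998) and *Gm45716* (0.103), *Btg2* to *Rnf181* (0.0405) and *Tmem43* (0.0530), and *Plk3* to *Nrros* (0.0269) and *Mink1* (0.0328). These distances describe the likeness of profiles over 6 libraries and were not tested.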

How the data were processed

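RNA-seq of sorted, activated B cells from the spleen was analysed for 3 mice of each genotype, grouped by the submitters' labels. Per the submitters' processing notes and the methods of the study, the authors trimmed reads with fastp 0.23.1, aligned them to mm10 with STAR 2.7.9a, counted them per gene and strand with featureCounts, and scaled them with DESeq2 1.38.2. The values in the deposited table are normalized counts, that is, a signal in fractions of a read. The deposited table also holds the authors' own results (mean, log2 fold change, standard error, test statistic, a score, p-value, adjusted p-value and call), which were not used.

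Because the deposited unit is not a read count, log2(normalized count + 1) was tested with limma 3.58.1 in R 4.3.3, with a mean-variance trend and group as the only term, over 17640 genes with a mean of at least 10, with p adjusted by Benjamini-Hochberg and called under 0.1 and at 1.5-fold. A fold on this scale depends, for low genes, on the value added before the log2. For *Trp53cor1* the log2 difference was 6.15 with 1 added, 6.52 with 0.5 and 5.10 with 5. The count tests described next gave 5.59 (edgeR) and 5.70 (DESeq2) for it, both below the limma value. Dividing by the value of 1 read gave whole reads, within 0.1, for 100% of values. The column of hnRNPL-deficient library 2 could not be read by an automatic check of this step, so edgeR 4.0.16 and DESeq2 1.42.0 took the recovered reads of the remaining 5 libraries. They called 1072 higher and 707 lower (edgeR) and 1218 higher and 750 lower (DESeq2). An exact permutation test of 3 against 3 libraries cannot give a p below 0.1.

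The 8 genes and all gene lists were chosen with earlier results of these data known. Besides the 8 genes and *Hnrnpl*, the text names up to 6 called genes of each list with the largest change, *Trp53*, *Mdm2* and *Cdkn1a*, called neighbours within 200 kb, and the 2 nearest profiles of each gene. *Plk1*, *Plk4*, *Atr*, *Chek2*, *Pecam1*, *Cd22*, *Trac* and the markers at 0 were named after their values were seen. Gene models were GENCODE on GRCm38, an earlier release than that of the authors, and matched 17332 of the tested genes and all 8 genes by versioned identifier. The tests were tried on simulated data. Splicing and other assays of the study were not analysed here.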

Additional observations from a re-analysis of the deposited data

How the results depend on the processing

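In 17 alternatives (pseudocount, filter, scaling, variance model, block, each library left out, edgeR, DESeq2 and, added after seeing the data, the sex of the mouse) the same 7 of the 8 genes were called higher. The filter, variance model, block and sex term left each fitted difference of the 8 genes as it was, so they could change only the calls. The log2 difference of *Trp53cor1* ranged from 4.96 without WT library 1 to 6.90 without WT library 2, against 6.15. At an adjusted p under 0.05 and 2-fold, 6 of the 8 were called. In the main fit, 7.28% of all tested genes were called higher. The 8 genes were chosen by their levels in these same libraries, so nothing is read from their calls. Other scalings put the median of all genes at -0.03 to 0.03.

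Leaving out each library in turn, 850 to 1124 genes were called higher instead of 1284 (850 without WT library 3). Genes called lower were 1 to 3 for the p53 pathway lists instead of 3 (1 without WT library 1), 1 to 4 for immediate early genes instead of 3 (1 without WT library 2), 0 to 2 for mitotic genes instead of 0 (2 without hnRNPL-deficient library 1) and 0 to 1 for paralogs and partners instead of 0 (1 without hnRNPL-deficient library 1 or 3). At an adjusted p under 0.05 and 2-fold, 610 genes were higher and 216 lower, with 0 lower in the p53 pathway lists and 0 higher among paralogs and partners. At any fold, 1406 genes were lower, with 2 paralogs or partners lower and 1 immediate early gene higher. edgeR called 5 immediate early genes and 1 partner lower. Within 500 kb, 3 neighbours were lower instead of 1. With the longest transcript, the WT level per kb was 54.6 for *Psrc1* and 12.8 for *Plk2*. Apart from the thresholds, and the smaller number of libraries where one is left out, the cause was not tested.

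Deviations of same-numbered WT and hnRNPL-deficient libraries correlated at 0.429, 0.320 and 0.0663, and those of other pairs at -0.458 to 0.305. The highest of these others was WT library 3 with hnRNPL-deficient library 2. The labels give only replicate numbers, and these correlations do not settle whether the numbers pair the samples. The main fit therefore used no block. With the replicate number as a block, 5 mitotic genes were called lower instead of 0, and 1755 genes were called higher and 1018 lower. With 3 libraries per genotype, small changes could be missed, and values resting on few reads, as for *Trp53cor1* in WT, carry a large counting error. Counts per gene do not tell which start a transcript used.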
